A study of Homo sapiens with 4 samples.

Results

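Peaks of 3 ChIP-seq libraries were examined around 6 genes that encode luminal pioneer and lineage transcription factors: FOXA1, FOXA2, HOXB13, GATA2, GATA3 and GRHL2. The genes were chosen by name among 20136 annotated protein-coding genes, with earlier results of these data known. Every deposited peak that overlapped the hg19 span of one of them, or 50 kb on either side, was taken. This gave 39 of 60752 peaks of the DHT list of H3K27Ac, 36 of 57623 peaks of the vehicle list and 11 of 20955 peaks of the TCF7L2 list. All libraries came from LNCaP, an established line of androgen-responsive human prostate cancer cells derived from a lymph node metastasis. For H3K27Ac, the DHT cells (passage 20) were kept in charcoal-stripped serum, which removes steroid hormones, and given 10 nM DHT for 4 h, and the vehicle cells (passage 20) were kept in the same serum with ethanol, as the study's methods say. For TCF7L2, cells of passage 15 were grown in serum that was not stripped. There was 1 library for each condition, so no difference below has a replicate check, and no p-value is given. The input library was not analysed here.

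Pioneer factors bind DNA that is still packed in nucleosomes and open it for other factors. In prostate luminal cells FOXA1, GATA2 and HOXB13 prepare enhancers that respond to androgens such as DHT, and GRHL2 keeps epithelial genes on. H3K27Ac, acetylation of lysine 27 of histone H3, marks active promoters and enhancers, and TCF7L2 is a DNA-binding factor at the end of the Wnt pathway. FOXA2, a paralog of FOXA1, is known from liver, gut and neuroendocrine prostate cancer, and GATA3, a paralog of GATA2, is known from breast luminal cells and T cells.

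The peak height is the number of tags piled up at the peak, as the authors deposited it, and no source says that heights were scaled to library depth. Heights ran between 10 and 213 tags in the DHT list, between 9 and 212 in the vehicle list and between 15 and 229 in the TCF7L2 list, with medians of 23, 22 and 31 tags. Total reads per library are not in the lists, so depth is unknown here. Heights of 1 condition are therefore given with exact Poisson 95% intervals, which cover counting error only. In the H3K27Ac lists the luminal and basal markers fitted the label of the cells. All 7 luminal markers (such as KLK3, which encodes prostate-specific antigen, and KRT8) had a promoter in an H3K27Ac peak in both lists. Among all protein-coding genes 57.5% had one with DHT and 56.3% with vehicle. So did 0 of 4 basal markers (TP63, KRT5, KRT14 and KRT15), 0 of 3 leukocyte markers, 1 of 4 stroma markers and 1 of 1 matched endothelium marker. The 7 are not all separate cases, because KLK3 and KLK2 share their peaks.

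The following 3 stretches show the DNA under the TCF7L2 peaks around FOXA1, HOXB13 and GATA2, because these peaks of the TCF7L2 list lay in the acetylated domains of the pioneer genes. They are the parts of each peak outside annotated untranslated exons, read on the plus strand of GRCh37 (hg19). The HOXB13 and GATA2 peaks, of 22 and 21 tags, lie outside the 15000 tallest TCF7L2 peaks that the paper kept. Capitals mark any of the searched motifs, given further on.
FOXA1 start, chr14:38065214-38065379: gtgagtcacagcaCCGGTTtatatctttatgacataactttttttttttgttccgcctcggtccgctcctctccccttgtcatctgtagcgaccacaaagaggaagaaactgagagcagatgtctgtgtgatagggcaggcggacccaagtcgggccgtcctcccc
HOXB13 downstream, chr17:46801860-46802042: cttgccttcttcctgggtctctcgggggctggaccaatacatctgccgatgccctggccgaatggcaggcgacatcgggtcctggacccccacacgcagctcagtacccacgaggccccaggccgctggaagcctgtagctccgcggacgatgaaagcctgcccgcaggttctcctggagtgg
GATA2 inside the gene, chr3:128206765-128206889: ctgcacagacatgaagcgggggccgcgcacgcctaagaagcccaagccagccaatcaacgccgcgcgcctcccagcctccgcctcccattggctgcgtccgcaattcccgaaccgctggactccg
The FOXA1 start stretch held AACCGG, read on the other strand as CCGGTT, the core of the grainyhead-like (GRHL) site. No searched motif stood in the HOXB13 and GATA2 stretches.

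Promoters of 3 members were in the RefSeq promoter table (assembly GRCh38.p14), namely FOXA1, GATA2 and GATA3. FOXA2, HOXB13 and GRHL2 are named only. The 250 bases before 1 start of each gene follow, to set promoters that lay in H3K27Ac peaks (FOXA1 and GATA2) beside one that did not (GATA3). The bases are those of the gene's own strand, each was matched letter for letter to GRCh37, and capitals mark CG pairs, the sites of DNA methylation.
FOXA1, chr14:38064455-38064704, minus strand: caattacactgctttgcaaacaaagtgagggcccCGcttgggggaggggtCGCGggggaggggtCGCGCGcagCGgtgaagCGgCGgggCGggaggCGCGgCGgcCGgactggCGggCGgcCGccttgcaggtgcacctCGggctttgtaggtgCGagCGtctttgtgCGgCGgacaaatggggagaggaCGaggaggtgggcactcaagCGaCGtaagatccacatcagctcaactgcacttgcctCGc
GATA2, chr3:128212045-128212294, minus strand: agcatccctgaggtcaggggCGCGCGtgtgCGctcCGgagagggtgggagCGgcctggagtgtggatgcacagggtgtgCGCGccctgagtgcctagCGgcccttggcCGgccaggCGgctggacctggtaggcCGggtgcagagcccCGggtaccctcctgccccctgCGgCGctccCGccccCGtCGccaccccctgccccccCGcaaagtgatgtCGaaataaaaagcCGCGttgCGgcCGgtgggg
GATA3, chr10:8096401-8096650, plus strand: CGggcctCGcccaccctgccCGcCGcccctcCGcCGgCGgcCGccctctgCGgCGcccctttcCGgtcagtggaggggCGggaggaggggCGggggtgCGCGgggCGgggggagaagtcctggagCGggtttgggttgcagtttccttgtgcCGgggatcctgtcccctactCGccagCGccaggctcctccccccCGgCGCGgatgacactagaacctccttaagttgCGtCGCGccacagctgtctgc
The 3 stretches had 26, 24 and 26 CG pairs, where the median of 35116 RefSeq promoters of the same length was 11. The FOXA1 stretch lay in a peak of 160 tags with DHT and 155 with vehicle and the GATA2 stretch in peaks of 113 and 98 tags, while no H3K27Ac peak of either list lay over the GATA3 stretch or over any of the other 5 GATA3 starts in that table. The other 5 GATA3 starts had between 4 and 30 CG pairs, and the second GATA2 start, in the same peaks as the first, had 18.

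The 6 genes split into 4 that lay in strongly acetylated chromatin (FOXA1, HOXB13, GRHL2 and GATA2) and 2 with little or none (GATA3 and FOXA2). The tallest peak near HOXB13 had 161 tags with DHT (interval 137 to 188) and 159 with vehicle (135 to 186). Near FOXA1 the tallest peak had 160 tags with DHT (136 to 187) and 155 with vehicle (132 to 181). Near GRHL2 it had 152 tags with DHT (129 to 178) and 136 with vehicle (114 to 161), and near GATA2 it had 113 with DHT (93.1 to 136) and 98 with vehicle (79.6 to 119). These intervals overlapped between DHT and vehicle for each gene, and those of HOXB13, FOXA1 and GRHL2 overlapped one another in each list. GATA2 stood below HOXB13 and FOXA1 without overlap of the intervals in either list, but narrowly with DHT (upper end 135.9, against a lower end of 136.2 for FOXA1). Its intervals met those of GRHL2. Each height is the tallest of several peaks near these 4 genes, and the intervals do not cover that choice. GATA3 had 13 tags with DHT (6.92 to 22.2) and 10 with vehicle (4.80 to 18.4). FOXA2 had no peak in any list.

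**Figure D1:**
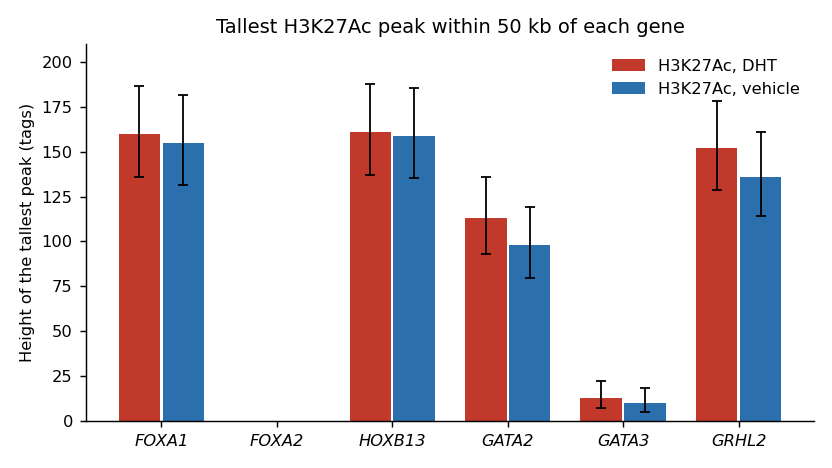
Tallest H3K27Ac peak within 50 kb of each gene, as its height in tags, with DHT (red, left bar) and vehicle (blue, right bar); error bars are exact Poisson 95% intervals of 1 library each, and FOXA2 has no peak. The 4 tall genes sit between 98 and 161 tags, and for each gene the DHT and vehicle intervals overlap.

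A peak of the DHT list lay within 50 kb of 5 of the 6 genes, close to the 91.1% of all protein-coding genes, and so did a vehicle peak (90.5% of all genes). A promoter, 1000 bp before to 100 bp after an annotated start, lay in a peak for 4 of the 6 genes in both lists, where the share over all protein-coding genes was 57.5% with DHT and 56.3% with vehicle. The members are thus not set apart by having a peak, but the heights of these 4 were high: 199 of 20136 genes had a taller DHT peak nearby than HOXB13, 214 than FOXA1, 360 than GRHL2 and 2310 than GATA2. In the vehicle list 121 genes had a taller peak than HOXB13, 169 than FOXA1, 566 than GRHL2 and 2957 than GATA2. A peak within 50 kb is not shown to act on the gene, and neighbouring genes share it.

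FOXA1, the forkhead pioneer of luminal cells, lay in a single H3K27Ac peak that spanned 45.9 kb with DHT (chr14:38025930-38071829, 160 tags) and 45.4 kb with vehicle (chr14:38027460-38072909, 155 tags). It reached over the whole gene, to 6.57 kb before the start and 39.3 kb past it with DHT, and took in starts of the neighbours MIPOL1 and TTC6. By width it ranked 31 among all DHT peaks and 28 among all vehicle peaks. Peaks covered 73.3% of the bases within 50 kb of FOXA1 with DHT and 72.8% with vehicle, and in each list 2 of the 20136 protein-coding genes had a larger covered share. With DHT these were PPP3CA with 78.6% and KDM6A with 75.4%. The median gene had 6.64% covered with DHT and 6.17% with vehicle.

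A second wide peak lay beyond the 3′ end of FOXA1, inside MIPOL1, with 131 tags with DHT and 144 with vehicle. Before the start, toward and within TTC6, peaks were lower. DHT cells had 65 tags in the one centered 21.1 kb upstream and 33 in the one 45.1 kb upstream, against 67 and 48 in vehicle cells. The other 4 paired peaks upstream had 13 to 19 tags with DHT and 12 to 24 with vehicle, and 1 DHT peak of 11 tags overlapped a wider vehicle peak that was paired with its neighbour. Of the 8 pairs near FOXA1, 6 were lower with DHT and 2 higher, with ratios of DHT over vehicle between 0.69 and 1.17 and a median of 0.89. None of these 8 ratios had a counting interval that excluded 1.

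**Figure D2:**
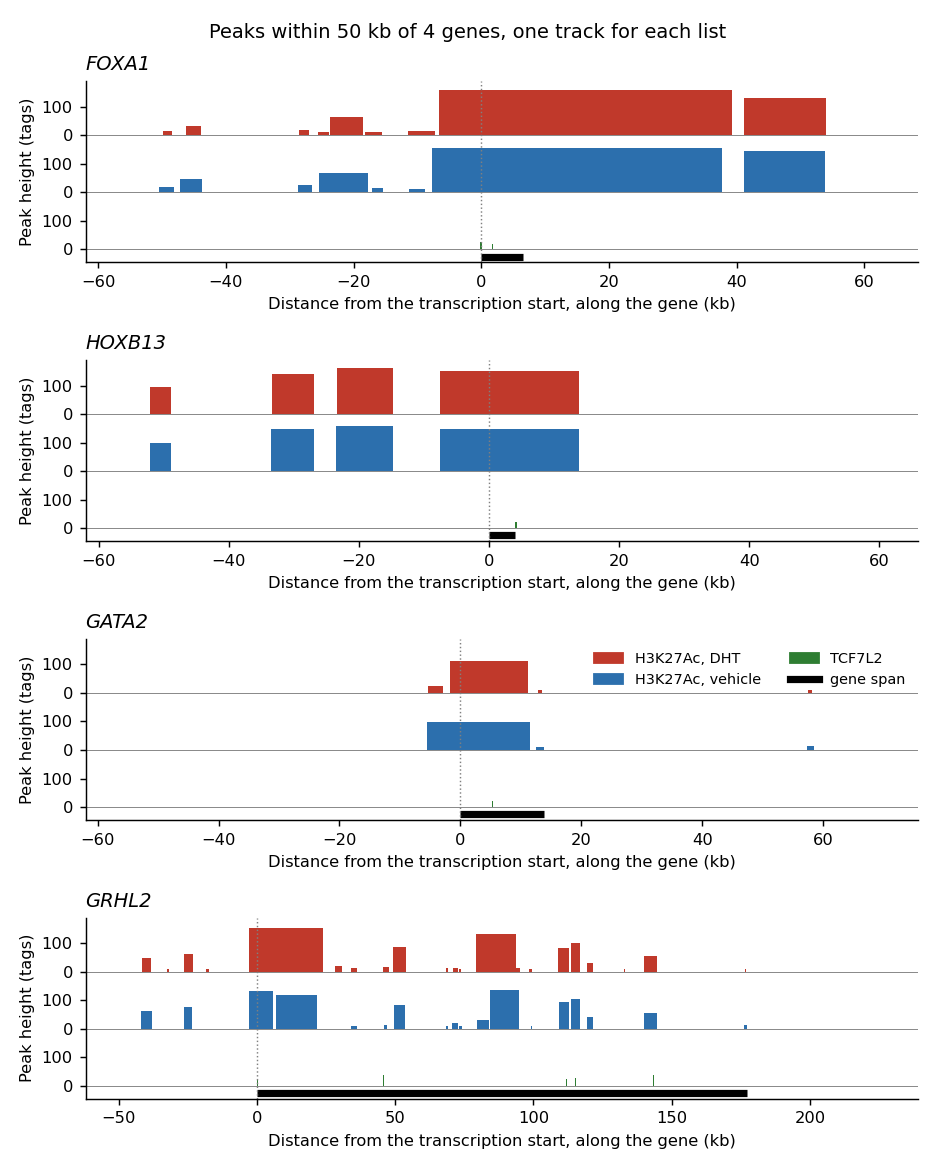
Peaks around FOXA1, HOXB13, GATA2 and GRHL2 by distance from the transcription start along the gene (kb), with peak height in tags on 3 tracks: DHT (red, top), vehicle (blue, middle) and TCF7L2 (green, bottom); the black bar is the gene. The DHT and vehicle tracks show the same large blocks, such as the FOXA1 peak of 45.9 kb with DHT and 45.4 kb with vehicle, and the TCF7L2 peaks are low and narrow.

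HOXB13, the posterior homeobox factor of the prostate, had 4 peaks in each list, all tall and all paired. The peak over the gene spanned 21.2 kb with DHT and 21.4 kb with vehicle, reached 152 tags with DHT and 149 with vehicle, and took in the promoters of PRAC1 and PRAC2, prostate-expressed neighbours of unclear function. The tallest peak lay 19.1 kb before the start (chr17:46820940-46829519 with DHT), with 161 tags with DHT and 159 with vehicle. DHT cells had 141 and 94 tags in the peaks centered 30.1 kb and 50.5 kb before the start, against 148 and 100 in vehicle cells. The 4 ratios lay between 0.94 and 1.02, the narrowest range of any member with more than 1 pair. Peaks covered 36.05% of the bases around HOXB13 with DHT and 36.45% with vehicle, and 175 genes had a larger share with DHT.

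GATA2, the zinc-finger pioneer that works with FOXA1 at androgen-responsive enhancers, lay under 1 main peak. With DHT it spanned 12.8 kb (chr3:128200920-128213729, 113 tags) and was followed upstream by a separate peak of 26 tags, over exons of the antisense gene GATA2-AS1. With vehicle 1 peak of 98 tags spanned 16.9 kb (chr3:128200560-128217479) and covered both places. The ratio of the main pair was 1.15 (interval 0.87 to 1.53). DHT cells had 11 and 10 tags in the 2 other pairs, against 11 and 13 in vehicle cells, the first over the 3′ exon of GATA2 and the second 57.9 kb from the start. Because the DHT list holds 2 peaks where the vehicle list holds 1, the summed height of 160 tags with DHT and 122 with vehicle counts the way peaks were split as well as signal.

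GRHL2, the grainyhead-like factor of epithelial cells, is the longest member (177 kb) and had the most peaks, 21 with DHT and 20 with vehicle. Per 100 kb of window this was 7.57 peaks with DHT and 7.21 with vehicle, below the 8.45 with DHT and 7.51 with vehicle at FOXA1. Over its start a DHT peak of 152 tags spanned 26.7 kb, where the vehicle list held 2 peaks of 132 and 119 tags. A large peak inside the gene, 86.5 kb past the start, reached 133 tags with DHT and 136 with vehicle. The last was the tallest vehicle peak near GRHL2, so the tallest peaks of the 2 lists are not a pair for this gene. Elsewhere inside the gene, the 4 next tallest pairs had 86, 83, 101 and 56 tags in DHT cells, in order along the gene, against 82, 93, 103 and 57 in vehicle cells. Before the start, DHT cells had 64 and 47 tags in peaks 24.8 kb and 39.9 kb upstream, against 75 and 64 in vehicle cells.

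GATA3 and FOXA2 stood at the other end. The single peak near GATA3 lay 32.3 kb before its outermost annotated start (chr10:8054610-8055449 with DHT) at 0.839 kb wide, and no peak lay over the gene in any list. Of all protein-coding genes, 17856 had a taller DHT peak nearby than GATA3. FOXA2 was among 1099 of 20136 protein-coding genes (5.46%) with no peak of any list within 50 kb. Peak lists hold only what passed the authors' threshold, so the mark was not detected there at this depth.

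Most H3K27Ac near the members had the same place in both lists, and few pairs differed by 1.5-fold in height. Of the 39 DHT peaks, 3 overlapped no vehicle peak, each of 11 tags and each near GRHL2, where 17.1% of all DHT peaks overlapped none. Of the 36 vehicle peaks, 0 lacked an overlap with a DHT peak, where 11.8% of all vehicle peaks did. In each list 33 peaks formed pairs, each the other's best overlap, and 3 more peaks overlapped the other list without being the best match, such as the vehicle GRHL2 peaks of 132 and 31 tags and the DHT GATA2 peak of 26. The height was at least 1.5-fold higher with DHT in 1 of 33 pairs, against 14.6% of 49555 pairs in the genome, and at least 1.5-fold lower with DHT in 0 of 33, against 6.75%. The 1 pair past the fold was a low intronic GRHL2 peak of 21 tags with DHT and 9 with vehicle, at 2.33-fold (interval 1.02 to 5.79).

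The median ratio of DHT over vehicle was 0.98 over the 33 pairs and 1.07 over all pairs. Some height was gained with DHT in 13 of 33 pairs, or 39.4%, where 57.1% of all pairs were higher, and 18 of 33 were lower, where 37.3% of all pairs were. The counting interval of the ratio lay above 1 in 1 of 33 pairs (9.36% of all pairs) and below 1 in 0 of 33 (2.74% of all pairs). In 0 of 33 did it leave out 1.07. Among pairs with a mean height of at least 50 tags, a limit chosen after the data were seen, the median was 0.98 over 16 pairs and 1.06 over 11336 in the genome. The members' own medians were 0.89 for FOXA1, 0.98 for HOXB13, 1 for GATA2 and 0.98 for GRHL2, over 8, 4, 3 and 17 pairs, while the single GATA3 pair was at 1.30. Pairs of 1 gene share their neighbourhood, and 17 of the 33 belong to GRHL2.

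The low number past the fold held within 50 kb and not beyond. With 100 kb on each side of the genes, 8 of 54 pairs (14.8%) were at least 1.5-fold higher with DHT and 4 (7.41%) at least 1.5-fold lower, shares near those of all pairs. The 21 pairs that this added lay near 5 members, and they held 7 of the 8 higher and all 4 lower ones. Far upstream of FOXA1, DHT cells had 18, 33 and 10 tags in peaks centered 58.7, 73.5 and 87.5 kb before the start, against 55, 68 and 23 in vehicle cells. The ratios were 0.33, 0.49 and 0.43, and each counting interval lay below 1. Far upstream of GRHL2, 83.9 kb before the start, a peak had 100 tags with DHT but 40 in vehicle cells, a ratio of 2.50. Upstream of HOXB13, DHT cells had 98 and 109 tags in peaks 73.3 and 90.2 kb before the start, against 65 and 76 in vehicle cells, with ratios of 1.51 and 1.43. Of the 21 added pairs, 4 had a counting interval above 1 and 3 one below 1. These peaks were singled out after their values were seen.

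**Figure D3:**
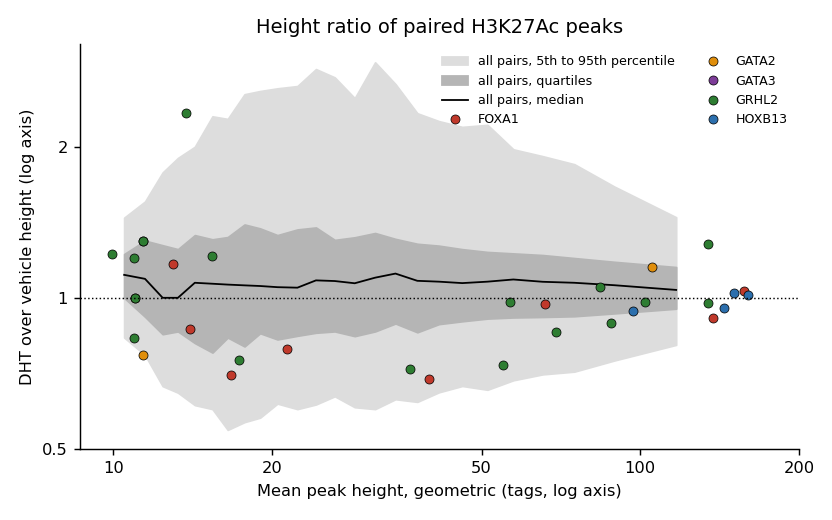
Ratio of DHT over vehicle height (log axis) against the geometric mean height in tags (log axis) for the 33 pairs near the members, colored by gene, over the median, quartiles and 5th to 95th percentiles of all 49555 pairs (25 bins). The members scatter around 1 with a median of 0.98, and the point at 2.33 is the low GRHL2 peak.

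The same lists held larger differences at some other genes. Of the 7 luminal markers, 2 were past 1.5-fold in the tallest peak, both higher with DHT. Near KLK3 and KLK2, which share their peaks, the tallest peak had 180 tags with DHT and 97 with vehicle, a ratio of 1.86. The other 5 lay between 0.97 for FOLH1 and 1.19 for KRT8 and KRT18. KLK3 and KLK2 were named after their values were seen. None of the 5 members with peaks reached 1.5-fold in this measure: the ratios were 1.03 for FOXA1 (interval 0.82 to 1.30), 1.01 for HOXB13 (0.81 to 1.27), 1.15 for GATA2 (0.87 to 1.53), 1.30 for GATA3 (0.53 to 3.31) and 1.12 for GRHL2 (0.88 to 1.42). The median over the 18028 protein-coding genes with a peak in both lists was 1.09. Of these genes, 1564 were at least 1.5-fold higher with DHT and 352 at least 1.5-fold lower, so 0 of 5 members does not set them apart.

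Wide peaks were frequent near the members. At least 8 kb wide, a limit set after the widths were seen, were 7 of 39 DHT peaks, where 1.72% of all DHT peaks were, and 8 of 36 vehicle peaks, where 1.54% were. They lay near FOXA1, HOXB13, GATA2 and GRHL2. The paper reports that peak width rises with height, and these shares were not matched for height. Wide coverage was not particular to the members. The median covered share of bases with DHT was 47.2% over the 7 luminal markers and 22.0% over the 6 members. With vehicle it was 29.9% and 21.3%. The median width was 2.46 kb near the members and 1.8 kb in the whole DHT list, and it was 3.01 kb near the members and 1.77 kb in the whole vehicle list. The authors called peaks with a set blur length, over which nearby enrichment is joined, so a wide peak can hold several sites.

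Other genes of the same families and other lineages give the scale. In the DHT list, the tallest nearby peak had a median height of 132.5 tags over the 6 members, 114 over 8 other transcription factors of prostate luminal cells, 47 over 10 paralogs of the members and 6.5 over 8 factors of basal and neuroendocrine cells, beside 62 over all protein-coding genes. With vehicle the medians were 117, 93, 50 and 9 tags, beside 55. Among the other luminal factors EHF, an epithelial ETS factor, was highest with 196 tags with DHT and 172 with vehicle, and KLF5 lowest with 26 and 18. Among the paralogs GATA4 was highest with 137 and 107 tags, though none of its promoters lay in a peak, and HOXD13 had none. ONECUT2, a factor of neuroendocrine prostate cancer, led its list with 55 tags with DHT and 53 with vehicle, and NEUROD1, SOX2 and TWIST1 had no DHT peak nearby. A promoter lay in a DHT peak for 8 of 8 other luminal factors, 5 of 10 paralogs and 1 of 8 basal and neuroendocrine factors. Past 1.5-fold in the tallest peak were 1 of the 8 luminal factors, 0 of 9 paralogs with peaks and 1, INSM1 (16 tags with DHT, 9 with vehicle) of 4 basal and neuroendocrine factors with peaks, both higher with DHT. Over all 18028 protein-coding genes with a peak in both lists, 1564 were past it with DHT higher and 352 with DHT lower. With so few genes the counts do not set these lists apart.

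**Figure D4:**
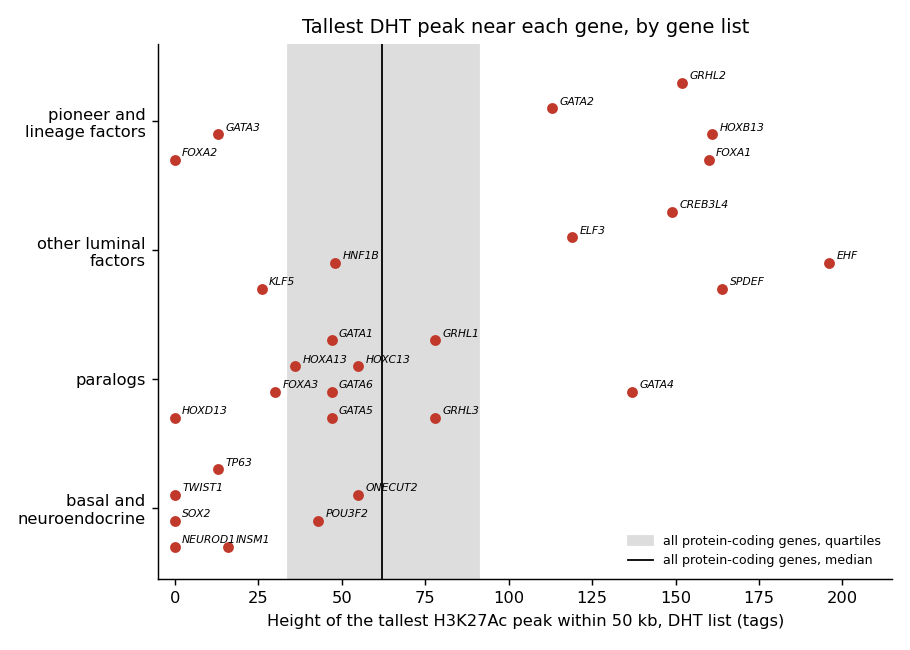
Tallest DHT peak of H3K27Ac, as its height in tags, within 50 kb of each gene, for the 6 members and 3 other lists (points are genes, not all of them shown; their vertical offset has no meaning), with the quartiles and the median of all protein-coding genes. FOXA1, HOXB13, GRHL2 and GATA2 lie between 113 and 161 tags beside luminal factors such as EHF at 196, and FOXA2 and GATA3 lie at 0 and 13 beside TP63 at 13.

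The genes whose pattern was most like each member were found by the distance over 6 measures, the tallest height and the number of peaks in the 3 lists, each as log2 of the value plus 1. Nearest to FOXA1 were GLYATL2 (distance 0.14) and DAND5 (0.30), to HOXB13 SPATA20 (0.19) and LGALS4 (0.25), to GATA2 MYO15A (0.26) and ZBED3 (0.26), and to GRHL2 RBM47 (0.32). For GATA3 they were OTX2 (0, with the same 6 values) and RABAC1 (0.10). FOXA2 tied with 1098 genes that share no peak with it, all without a peak, of which AADACL3 and AC005609.1 come first by name. RBM47, the gene nearest to GRHL2, had 142 tags with DHT, 134 with vehicle and 36 for TCF7L2.

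TCF7L2 was mapped under other serum, and its heights are read within its own list only. The list differs from the H3K27Ac lists in a way that touches every result on it: 34.5% of all TCF7L2 peaks overlapped an H3K27Ac peak, and the share was 29.7% in the tallest 2096 peaks (98 to 229 tags) and 39.7% in the lowest 2096 (15 to 20 tags). TCF7L2 peaks of 162 and 128 tags lay near the basal genes TP63 and KRT5, where H3K27Ac peaks had at most 16 tags or were not called. The basal genes KRT14 and KRT15 had 19 and 36, and KRT14 had an H3K27Ac peak of 34 tags with DHT. Tall TCF7L2 peaks were not particular to basal genes. The stroma markers MYH11 and ACTA2 had 210 and 149 tags and the endothelium marker CDH5 149, while DES and DCN had none. KLF5 had 204, where the median of the 8 other luminal factors was 60.5. Of the 7 luminal markers, KRT8 and KRT18 had a TCF7L2 peak of 134 tags nearby, SLC45A3, KLK3 and KLK2 had 55, 23 and 20, and TMPRSS2 and FOLH1 had none nearby. KRT8 and KRT18, both on chromosome 12, had the same tallest heights in all 3 lists, so they do not count as separate cases. Why the list and the acetylation differ in this way was not tested, and whether the list belongs to the labelled cells could not be settled from the peaks, so each TCF7L2 value stands as that of the list labelled TCF7L2 in LNCaP.

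Near the members, all 11 TCF7L2 peaks overlapped H3K27Ac (100%), against 34.5% of the whole list. H3K27Ac peaks covered 14.6% (GATA2) to 73.3% (FOXA1) of the bases around these 4 genes with DHT, and the 11 peaks come from 4 neighbourhoods. Each overlapped a DHT peak and 10 a vehicle peak. The exception lay 18.0 kb before GRHL2, in one of the DHT peaks of 11 tags that overlapped none with vehicle. The peaks were low, between 18 and 40 tags with a median of 23, and 2 of the 11 exceeded the list's median of 31. A TCF7L2 peak lay within 50 kb of 4 of the 6 genes, where 66.8% of all protein-coding genes had one, and in a promoter of 3 of the 6, where 20.2% of all genes had one there. GRHL2 held 7 of the 11, so the peaks are not spread evenly over the genes. The paper kept only the 15000 tallest TCF7L2 peaks. The only peaks near HOXB13 (22 tags, rank 16372) and GATA2 (21 tags, rank 17374) fall outside that limit.

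At FOXA1 the TCF7L2 peak over the outermost annotated start had 26 tags and the one 1.71 kb inside had 18, both in the 45.9 kb domain. At HOXB13 the peak of 22 tags lay just past the 3′ end of the gene, in an exon of PRAC2. At GATA2 the peak of 21 tags lay 5.27 kb inside the gene, at an annotated start of other GATA2 transcripts. At GRHL2 peaks of 25 and 20 tags lay 0.353 and 1.48 kb past the start, and the tallest of all, of 38 and 40 tags, lay 45.9 and 144 kb past it. Those at 112 and 115 kb had 23 and 27 tags and stood in paired acetylated peaks, while FOXA2 and GATA3 had none.

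**Figure D5:**
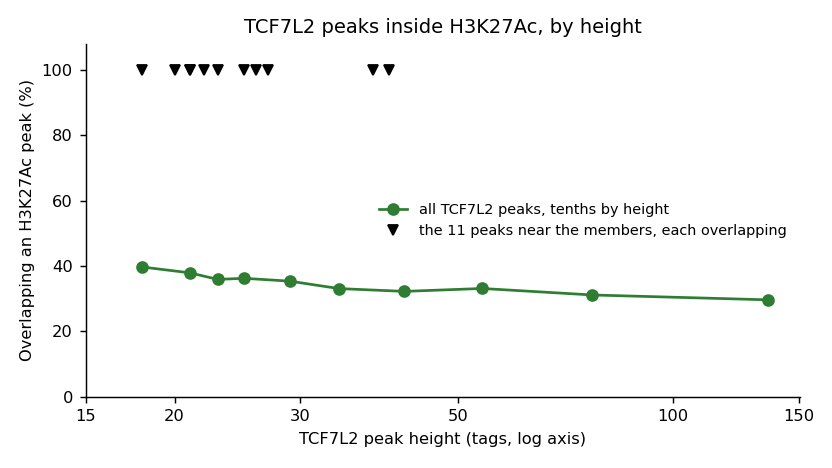
Share of TCF7L2 peaks that overlap an H3K27Ac peak of either list (%) against TCF7L2 peak height (tags, log axis); green points are 10 equal groups of the whole list by height, at their median height, and black triangles are the 11 peaks near the members, drawn at 100% because each overlaps. The whole list runs between 29.7% and 39.7%, and the 11 peaks lie at its low end, between 18 and 40 tags.

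Short motifs were searched on both strands in 300 bp around each TCF7L2 peak center. The TCF forms CTTTGAT and CTTTGAA, which share their first letters, stood in 0 and 1 of the 11 peaks, where 15.1% and 16% of all TCF7L2 peaks held them, and either form stood in 1 of 11, where 29.1% did. The 1 peak was that 18.0 kb before GRHL2. AGAACA, a half-site of steroid receptors, was in 3 of 11 (21.1% of all), of which 2 were near GRHL2, at the start and 18.0 kb before it. The forkhead forms TGTTTAC and TGTTTGC, which differ at 1 letter, were in 1 peak each (5.71% and 5.49% of all), and this was the same GRHL2 peak 115 kb past the start. AACCGG was in 1 (4.4% of all), the FOXA1 start, and the GATA form AGATAA and the HOXB13 form CAATAAA in 0 (17.6% and 6.73% of all). A match is a string of letters, not a shown site, and with 11 peaks these counts do not set the members apart from the list.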

How the data were processed

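H3K27Ac and TCF7L2 ChIP-seq peaks of LNCaP cells were taken from 3 deposited peak lists, 1 for each library. By the paper, the authors used Bowtie 2 for H3K27Ac reads and ELAND for TCF7L2 reads, both on hg19, then Sole-search to call the peaks of each library, while the submitters' processing notes name CASAVA 1.8.2, Bowtie2 and BWA for all libraries. The deposited height is a signal, the tag pileup of the peak, and was used unscaled. Genes and starts were from GENCODE release 44 on GRCh37. Distances were taken from the outermost annotated start of each gene, which can differ from the start of a RefSeq promoter shown above. DHT and vehicle peaks were paired as mutual best overlaps of at least 1 bp. With 1 library for each condition no test was run: fold limits of 1.5, Poisson intervals of heights and exact binomial intervals of ratios describe counting error only, and the same rule was applied to all peaks or genes. The scripts used Python 3.11.15, pandas 2.3.3, scipy 1.17.1, pyfaidx 0.9.0.4 and samtools 1.23.1, and the overlap and pairing steps were tested on simulated data and against bedtools 2.31.1. The 6 members and all gene lists were chosen with earlier results of these data known. Of the fixed lists, PECAM1 was not matched in the annotation. Some genes and 1 sequence are not reported here. The genes named were the members, genes under their peaks, the 2 genes most like each member, the highest and lowest of each list and cell type markers. PPP3CA, KDM6A and INSM1 were named as well, after their values were seen. The alternatives were other flanks, shorter lists, scaled heights, a stricter overlap, other folds and other motif windows.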

Additional observations from a re-analysis of the deposited data

How the results depend on the processing

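With 10 kb on each side of the genes 23 DHT, 23 vehicle and 10 TCF7L2 peaks were counted, and with 100 kb 64, 60 and 18, of which 77.8% of the TCF7L2 peaks overlapped H3K27Ac. Among the 25000 tallest H3K27Ac and 15000 tallest TCF7L2 peaks the counts were 18, 20 and 5, with 80% of the 5 overlapping. The paper used these same limits, and under them HOXB13 and GATA2 had no TCF7L2 peak. The number of pairs at least 1.5-fold higher with DHT was 8 of 54 with 100 kb flanks (14.6% of all pairs). It was 0 of 18 in the tallest lists, where 9.15% of all pairs were higher. Among pairs of at least 50 tags, an alternative added after the data were seen, it was 0 of 16, where 9.60% of all such pairs were higher. Those at least 1.5-fold lower were 4 of 54 with 100 kb flanks (6.75% of all pairs). When DHT heights were divided by the median ratio of all pairs they were 2 of 33, both near FOXA1 (9.32% of all pairs). At a ratio of 5 to 4, a lower limit, 4 pairs were higher and 7 lower (27.9% and 17.1% of all pairs). Summed heights gave GRHL2 a ratio of 0.87, where the vehicle list holds 2 peaks at the start. In 500 bp around the peak center the forkhead forms stood in 3 (TGTTTAC) and 2 (TGTTTGC) of the 11 peaks, against 8.71% and 8.76% of all TCF7L2 peaks. The GATA form stood in 2 (27.4% of all) and the HOXB13 form in 1 (11.1% of all). In 200 bp TGTTTGC stood in 0 (3.77% of all). The median ratio of the members lay between 0.92 and 1.03 under its alternatives, below the median of all pairs treated the same way in each. No paired analysis was possible because each condition had 1 library. Unknown depth limits how far heights of the lists can be compared.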
